A study of Schizosaccharomyces pombe with 24 samples.

Results

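The transcripts that growing fission yeast (Schizosaccharomyces pombe) is known to destroy through the RNA-binding protein Mmi1 were followed across mutants of the machinery that cleaves and polyadenylates mRNA. The 10 transcripts were taken by gene name, mei4 (SPBC32H8.11), ssm4 (SPAC27D7.13c), sme2 (SPNCRNA.103), rec8 (SPBC29A10.14), hop1 (SPBC1718.02), mcp5 (SPBC216.02), crs1 (SPBC2G2.09c), spo5 (SPBC29A10.02), mug10 (SPAC57A10.04) and mug8 (SPAC32A11.01), out of 6988 genes in the count table, and all 10 passed the filter on low counts that left 6287 genes to test. They are called Mmi1-eliminated from background knowledge; no mmi1 mutant was analysed here.

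Polyadenylated RNA was sequenced from haploid cells that were growing exponentially in YES, a rich medium, at 30 °C. There were 24 libraries forming 8 groups of 3 biological replicates. The 7 mutants carry single amino acid changes: pla1-Y86L in the poly(A) polymerase, msi2-G252E in an RNA-binding cleavage factor, pfs2-V180F and pfs2-E104A in a scaffold subunit, cft1-L249Q and pta1-T524M in further scaffold subunits, and ysh1-L74F in the endonuclease. The reference is WT, an h- strain with no marker named in the labels. The mutants msi2-G252E, pfs2-V180F, pfs2-E104A, pta1-T524M and ysh1-L74F are h- and also carry asp1-WT::kanMX, a marker beside wild-type asp1 that WT lacks; pla1-Y86L is h- with kanMX at its own locus, and cft1-L249Q is h+ with no marker named. No group carries the marker without a mutation, so the marker and the mutation cannot be told apart in these 5 strains, nor mating type and mutation in cft1-L249Q.

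Mmi1 is a YTH-domain protein that binds clusters of a short motif, UNAAAC, in regions called DSR (determinant of selective removal). With its partner Erh1 and the Red1-Mtl1 complex it leads meiotic RNAs to the nuclear exosome, with help from the poly(A)-binding protein Pab2 and from polyadenylation by Pla1. On entry into meiosis the RNA-binding protein Mei2 and the long non-coding RNA sme2 (meiRNA), itself rich in the motif, capture Mmi1 and the meiotic RNAs survive. Levels below are CPM, counts scaled to library size with TMM factors, in polyadenylated RNA. A changed level cannot be told apart from a changed share of molecules with a poly(A) tail, nor a change per cell from a change in the share of cells that hold the RNA.

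The motif was looked for in its DNA letters, TNAAAC with N any base and overlaps counted, on the sense strand of the spliced RefSeq transcripts (build ASM294v3), to which all 10 transcripts were matched. For 9 transcripts a 30-base window with the most copies is given, because these are the letters Mmi1 is known to read. It was sought in the coding sequence alone, or in the whole transcript for the non-coding sme2. Untranslated regions can thus hold richer windows: spo5 has 14 copies in its transcript and 6 in its coding sequence. For hop1 the stretch with the 2 copies of its densest 300 bases is given. Capitals mark the motif.
mei4: tagtTTAAACtcaaatattgTTAAACcccc
spo5: gtTTAAACccagcaaaatcataTCAAACcg
crs1: ctgcagaTGAAACttataTTAAACactcaa
sme2: TGAAACaatatTAAAACgtattccTGAAAC
rec8: tgaaaagcTCAAACcaTCAAACaatactcc
hop1: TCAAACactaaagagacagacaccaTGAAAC
ssm4: cgagTTAAACagtgcaaaatTGAAACtatc
mcp5: acaagtcaTTAAACtttTCAAACcgactaa
mug10: ttTTAAACcgtcatttggcaccTCAAACta
mug8: gatcttTTAAACgtatttTAAAACcaagaa

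The sme2 window spans bases 1523 to 1552 of the non-coding transcript, near its 3′ end, on chromosome II. The others lie in coding sequence, counted from the A of the start codon: bases 720 to 749 of mei4, 1209 to 1238 of spo5, 818 to 847 of crs1, 1065 to 1094 of rec8, 1543 to 1573 of hop1 and 1302 to 1331 of mcp5 on chromosome II, and bases 1506 to 1535 of ssm4, 902 to 931 of mug10 and 1391 to 1420 of mug8 on chromosome I. The densest run of the coding sequences was in mei4, where 8 copies lie within 287 bases (bases 532 to 818), and in mug8, where 8 lie within 296 bases (bases 1284 to 1579). The mei4 run shows how a motif cluster reads inside an open reading frame.
mei4 cluster: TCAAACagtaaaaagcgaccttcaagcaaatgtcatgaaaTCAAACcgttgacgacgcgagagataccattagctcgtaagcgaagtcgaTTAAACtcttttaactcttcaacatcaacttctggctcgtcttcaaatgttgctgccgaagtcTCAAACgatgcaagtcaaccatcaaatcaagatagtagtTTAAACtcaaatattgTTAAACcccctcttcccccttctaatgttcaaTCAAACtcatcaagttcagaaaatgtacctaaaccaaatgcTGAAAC

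In the densest 300 bases of the transcript, mei4, sme2, spo5 and mug8 held 8 copies, rec8 and mug10 held 7 and mcp5 held 6. A count of at least 6 is found in 0.303% of the 6272 tested gene models (19 genes, 7 of them from this group), while 88.5% hold at least 1 copy and the median is 2. The exceptions were ssm4 with 5 copies, crs1 with 3 and hop1 with 2, a density that 54.8% of gene models reach. On the antisense strand of the same transcripts the densest 300 bases held 1 to 4 copies. A match of letters is not evidence of binding.

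Total counts ran from 19368216 to 29297880 per library, and replicates of a group differed by more than counting noise. The 10 transcripts were low throughout: single counts ran from 18 (95% exact Poisson interval 10.7 to 28.4, counting error only) to 1040 (978 to 1110). Genes were tested with edgeR's quasi-likelihood test over all 24 libraries, and called at a Benjamini-Hochberg adjusted p under 0.05 over 6287 genes. The labels describe vegetative haploids. A list of 7 genes that mark cells in meiosis or sporulation was above 0 in every group, with summed levels of 88.6 to 97.0 CPM in pla1-Y86L, 140 to 145 CPM in msi2-G252E and 114 to 119 CPM in WT. Of these 7 markers, some of which recur in the lists below, 0 were higher and 5 lower in pla1-Y86L, and 2 were higher and 1 lower in msi2-G252E. Over all genes, 32.2% were called higher and 32.4% lower in pla1-Y86L, and 29.3% and 29.5% in msi2-G252E. Summed levels of 5 markers of h- cells were 56.6 to 61.8 CPM in pla1-Y86L and 47.2 to 51.6 CPM in cft1-L249Q, against 111 to 135 CPM in WT, and 3 markers of h+ cells summed to 25.7 to 26.8 CPM in cft1-L249Q and 28.8 to 31.4 CPM in WT. None was at 0 in any group, and the part of these levels in the results below was not tested.

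In pla1-Y86L all 10 transcripts were higher than in WT, and in each of them the 3 mutant libraries lay above the 3 WT libraries. Over all genes, 32.2% were called higher and 32.4% lower in this mutant, 35.1% had groups that did not overlap with the mutant above, and 4.85% were called at least 2-fold higher, which 8 of the 10 transcripts were. Their median log2 fold change was 1.39, against 0 for all genes. Their summed level was 133 ± 9.91 CPM in pla1-Y86L and 51.7 ± 0.968 CPM in WT (SD, n = 3 each).

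**Figure D1:**
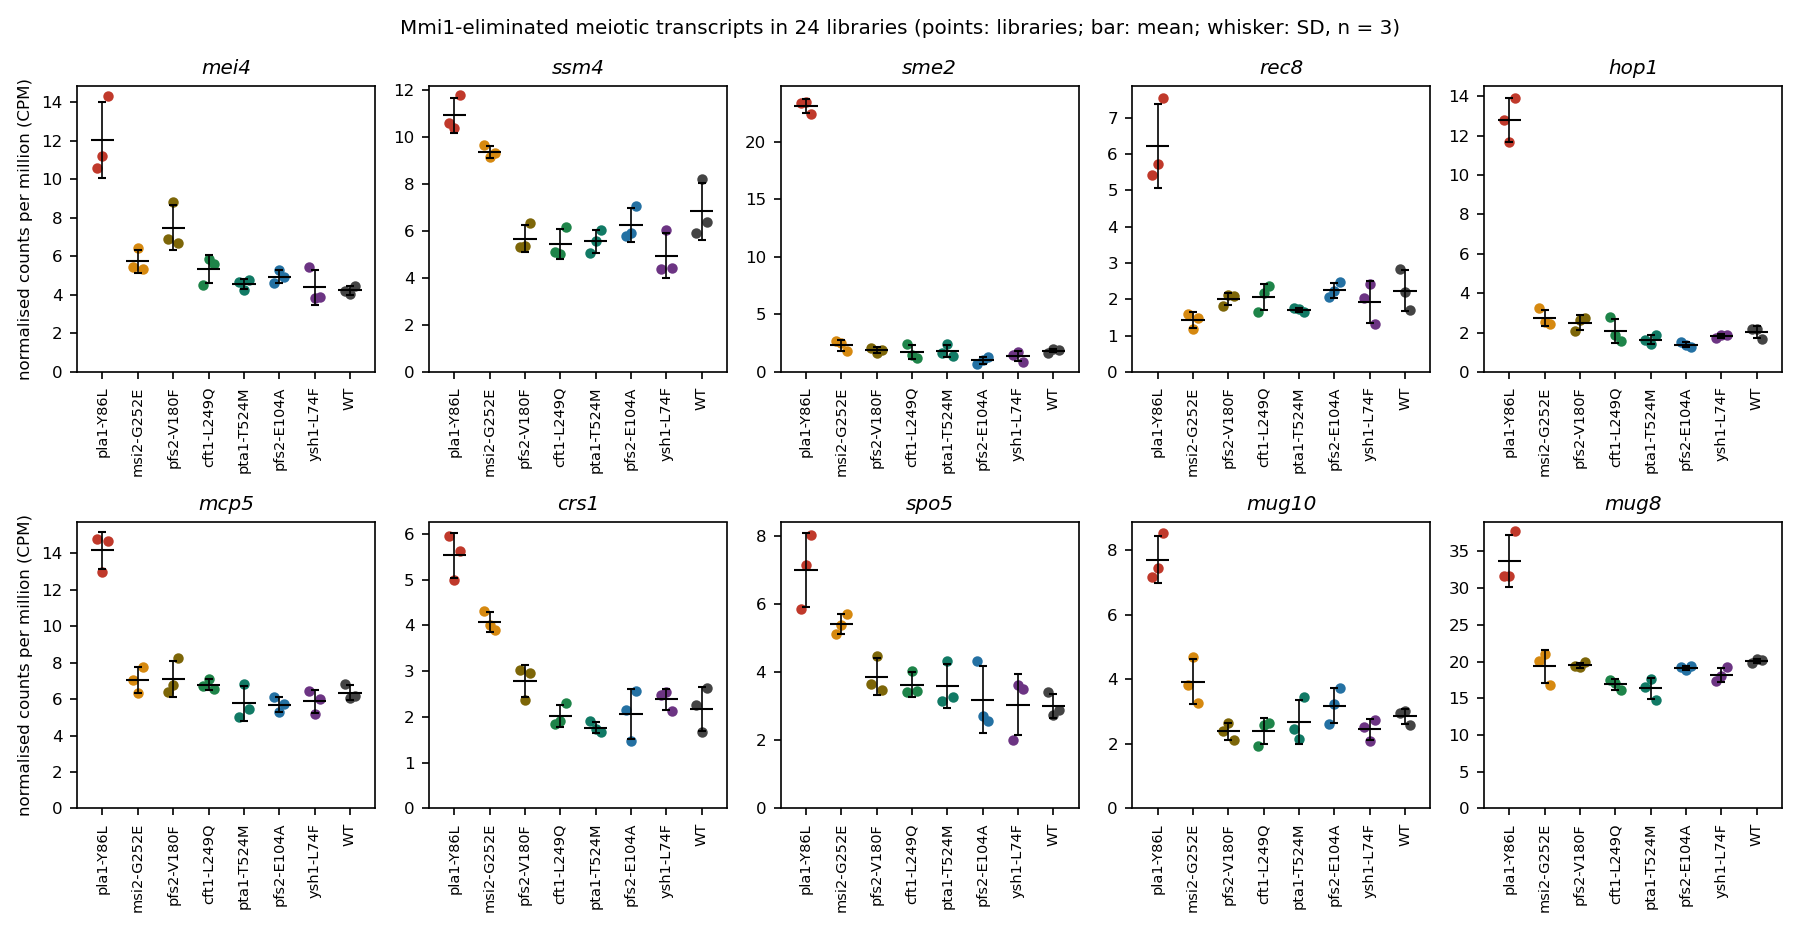
Level of each of the 10 transcripts in the 24 libraries (y axis, CPM from 0; x axis, 7 mutants and WT; points, libraries; bar and whisker, mean and SD of 3). In every panel the 3 pla1-Y86L libraries stand above all 21 others, with sme2 at 22.4 to 23.5 CPM against 1.67 to 1.99 CPM in WT.

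The regulators of meiosis came first in size through sme2, the non-coding RNA that holds Mmi1 in meiotic cells. It measured 23.4, 23.5 and 22.4 CPM in pla1-Y86L, against 1.67, 1.99 and 1.91 CPM in WT. The groups were far apart, with a 12.4-fold difference (log2 fold change 3.63 ± 0.18 SE, adjusted p = 1.26e-13). For mei4, the forkhead transcription factor of middle meiosis, the pla1-Y86L libraries measured 10.6, 11.2 and 14.3 CPM and the WT libraries 4.21, 4.02 and 4.46 CPM. Replicate 3 was the highest of the pla1-Y86L libraries here, as it was for all the other transcripts except sme2, mcp5 and crs1. Spo5, an RNA-binding protein needed for meiosis II, had 5.85, 7.14 and 8.02 CPM of its mRNA in pla1-Y86L and 3.42, 2.75 and 2.89 CPM in WT (log2 fold change 1.22 ± 0.19). The meiotic cyclin crs1 measured 5.96, 4.99 and 5.63 CPM in pla1-Y86L and 2.25, 1.67 and 2.62 CPM in WT, again without overlap.

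Among chromosome proteins, hop1, a component of the axes on which meiotic recombination takes place, measured 12.8, 11.7 and 13.9 CPM in pla1-Y86L and 2.17, 2.19 and 1.65 CPM in WT. That is a 6.41-fold difference (log2 fold change 2.68 ± 0.15, adjusted p = 9.19e-13), the next largest after sme2, in the transcript with the fewest motifs. The meiotic cohesin subunit rec8 measured 5.41, 5.72 and 7.55 CPM in pla1-Y86L and 2.83, 2.19 and 1.69 CPM in WT, a 2.80-fold difference. The groups did not overlap, although the WT libraries of rec8 were uneven (2.24 ± 0.574 CPM, SD).

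The proteins that move the nucleus during meiotic prophase are represented by ssm4, a subunit of the dynactin complex, and mcp5, which anchors dynein at the cell cortex. Mcp5 mRNA measured 14.8, 13.0 and 14.7 CPM in pla1-Y86L and 6.83, 6.05 and 6.19 CPM in WT (log2 fold change 1.16 ± 0.11). For ssm4 the values were 10.6, 10.4 and 11.8 CPM in pla1-Y86L and 5.92, 8.24 and 6.37 CPM in WT. Its log2 fold change of 0.68 ± 0.13 (adjusted p = 6.18e-05) was the smallest of the 10. Mug10 had 7.17, 7.44 and 8.53 CPM in pla1-Y86L and 2.96, 3.02 and 2.59 CPM in WT. For mug8, whose role like that of mug10 is not given here, the values were 31.7, 31.7 and 37.8 CPM in pla1-Y86L and 19.8, 20.3 and 20.2 CPM in WT (log2 fold change 0.75 ± 0.08).

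Set against the mean of the other 6 mutants, pla1-Y86L was higher for all 10 transcripts, with log2 differences from 0.85 (ssm4) to 3.84 (sme2). In that comparison 35.8% of all genes were called higher and 35.6% lower. In every transcript pla1-Y86L was the top group and its libraries lay above those of all 7 other groups, as in 15% of all genes.

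In msi2-G252E, 6 of the 10 transcripts were higher than in WT, rec8 was lower, and sme2, mcp5 and mug8 were not called, while 29.3% of all genes were called higher and 29.5% lower. The median log2 fold change of the 10 was 0.45, against 0 for all genes. The crs1 libraries measured 4.31, 4.01 and 3.89 CPM in msi2-G252E and 2.25, 1.67 and 2.62 CPM in WT (log2 fold change 0.90 ± 0.16, adjusted p = 5.81e-05). Those of spo5 measured 5.13, 5.39 and 5.72 CPM in msi2-G252E and 3.42, 2.75 and 2.89 CPM in WT (0.85 ± 0.20, adjusted p = 0.000869). Both transcripts were apart from WT by more than the spread of either group. For ssm4 the msi2-G252E libraries measured 9.67, 9.16 and 9.35 CPM, against 5.92, 8.24 and 6.37 CPM in WT (0.46 ± 0.13).

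The other called differences in msi2-G252E were less stable when single libraries were left out. Log2 fold changes were 0.44 ± 0.16 for mei4, 0.46 ± 0.18 for hop1 and 0.46 ± 0.18 for mug10. The rec8 libraries measured 1.60, 1.19 and 1.49 CPM in msi2-G252E and 2.83, 2.19 and 1.69 CPM in WT (−0.64 ± 0.23, adjusted p = 0.0201). Rec8 was thus lower in msi2-G252E and higher in pla1-Y86L, each relative to the same 3 WT libraries. Leaving out WT replicate 2 or msi2-G252E replicate 2 ended the call for mei4 (0.41 and 0.36), WT replicate 3 or msi2-G252E replicate 1 that for hop1 (0.35 and 0.33), WT replicate 3 or msi2-G252E replicate 2 that for mug10 (0.40 and 0.33), and WT replicate 1 or msi2-G252E replicate 2 that for rec8 (−0.42 and −0.51). Scaling by total counts alone raised the median of all genes by 0.17 in msi2-G252E and also ended the rec8 call (−0.47). Under that scaling mcp5 was called higher (0.32).

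Compared directly, msi2-G252E was lower than pla1-Y86L for 8 of the 10 transcripts (33.1% of all genes were called higher and 31.9% lower), from −3.31 ± 0.18 for sme2 to −0.44 ± 0.14 for crs1. The differences for ssm4 (−0.22, 95% interval −0.47 to 0.03) and spo5 (−0.37, −0.74 to −0.01, adjusted p = 0.0696) were not called, though in all 10 transcripts the msi2-G252E libraries lay below the pla1-Y86L libraries without overlap, as in 36.2% of all genes.

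**Figure D2:**
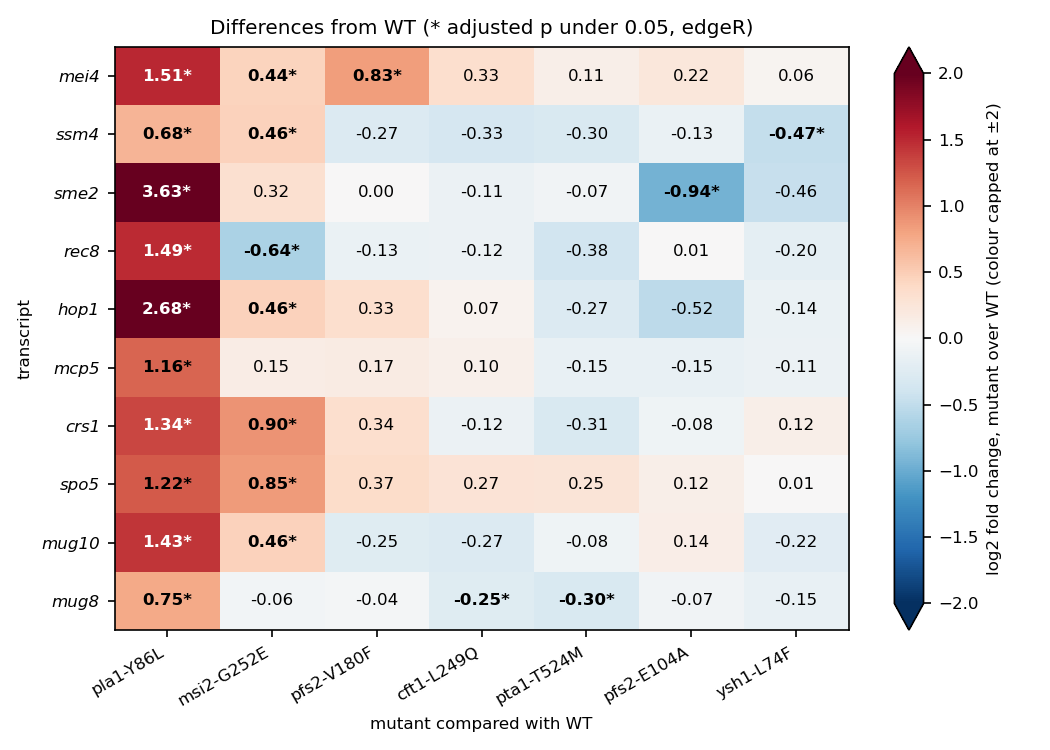
Log2 fold change of each transcript (rows) in each mutant over WT (columns); colour is capped at ±2 and an asterisk marks an adjusted p under 0.05. The pla1-Y86L column is called in 10 of 10 rows, msi2-G252E in 7, and the other 5 columns in 1 each.

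Across the other 5 mutants, 1 transcript was called in each. In pfs2-V180F mei4 was higher, at 6.91, 8.84 and 6.70 CPM against 4.21, 4.02 and 4.46 CPM in WT (log2 fold change 0.83 ± 0.15, adjusted p = 9.44e-05), beside 24.1% of all genes called higher and 24% lower. In pfs2-E104A sme2 was lower, at 0.713, 1.01 and 1.26 CPM against 1.67, 1.99 and 1.91 CPM in WT (−0.94 ± 0.30, adjusted p = 0.0184), beside 18.1% of all genes called higher and 16.1% lower; without pfs2-E104A replicate 1 it was −0.71 and not called. SPNCRNA.1342, which overlaps sme2 on the opposite strand, was lower in the same mutant (−1.04 ± 0.19). Mug8 was lower in cft1-L249Q, at 17.5, 17.1 and 16.1 CPM against 19.8, 20.3 and 20.2 CPM in WT (−0.25 ± 0.08, adjusted p = 0.0174), beside 22.3% of all genes called higher and 21% lower. These 3 calls had groups that did not overlap, but this does not set them apart. Some uncalled transcripts did not overlap with WT either: spo5 in pfs2-V180F, mei4 and spo5 in cft1-L249Q, and mei4, hop1 and mug8 in pfs2-E104A. The share of all genes without overlap is not given here for these mutants.

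The same transcript was lower in pta1-T524M, where mug8 measured 16.6, 17.6 and 14.8 CPM (−0.30 ± 0.08, adjusted p = 0.00555), beside 18.7% of all genes called higher and 19.8% lower. The cft1-L249Q call ended without cft1-L249Q replicate 3 (−0.21) and under total counts (−0.11), a scaling that raised the median of all genes by 0.13 in that mutant. Under total counts mei4 was called higher in cft1-L249Q instead (0.46). In ysh1-L74F ssm4 was lower, at 4.38, 6.05 and 4.41 CPM against 5.92, 8.24 and 6.37 CPM in WT (−0.47 ± 0.14, adjusted p = 0.0231), beside 7.57% of all genes called higher and 6.84% lower. Here the groups overlapped, and the call ended when WT replicate 2 (−0.32), ysh1-L74F replicate 1 (−0.38) or ysh1-L74F replicate 3 (−0.40) was left out. Each of these counts of 1 in 10 lies below or near the share called in that direction over all genes.

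Summed over the 10 transcripts, msi2-G252E libraries averaged 61.4 ± 3.05 CPM and pfs2-V180F libraries 55.2 ± 1.88 CPM, against 51.7 ± 0.968 CPM in WT (SD, n = 3 each). The sums for the remaining mutants lay below that of WT: 49.1 ± 1.83 CPM for pfs2-E104A, 48.3 ± 0.689 CPM for cft1-L249Q, 46.4 ± 0.922 CPM for ysh1-L74F and 45.4 ± 2.31 CPM for pta1-T524M. Mug8 alone was the largest part of every sum, so the sums do not show a fall of the whole group. It averaged 20.1 CPM in WT, 19.1 CPM in pfs2-E104A, 18.2 CPM in ysh1-L74F, 16.9 CPM in cft1-L249Q and 16.3 CPM in pta1-T524M. Median log2 fold changes were close to 0, running from −0.21 for pta1-T524M over −0.14 for ysh1-L74F, −0.11 for cft1-L249Q and −0.08 for pfs2-E104A to 0.09 for pfs2-V180F. Relative to the mean of the other 6 mutants, which includes pla1-Y86L, 8 of the 10 were lower in pta1-T524M (25.1% of all genes were called higher and 24.8% lower), 7 in ysh1-L74F (18.6% and 16.4%), 5 in pfs2-E104A (25.9% and 22.8%) and 5 in cft1-L249Q (20.1% and 15.7%). Because pla1-Y86L was the top group for every transcript, it raises that mean, and these counts in part restate its rise. For sme2 in pta1-T524M the difference was −0.48 ± 0.19 here and called, but −0.07 ± 0.25 against WT and not called. The pta1-T524M count was 5 without its replicate 1, and the cft1-L249Q count was 3 without its replicate 1 or 2 and under total counts. In the same comparison msi2-G252E had 4 higher (30.1%) and 1 lower (29.7%), and pfs2-V180F had mei4 higher (0.39 ± 0.11; 22.4% of all genes) and mug10 lower (−0.49 ± 0.15; 20.6%).

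The changes at different positions of Pfs2 can be compared directly, since both strains carry the same marker. In pfs2-V180F 4 transcripts were higher than in pfs2-E104A (19.6% of all genes) and none was lower (18.6%); without pfs2-E104A replicate 1 the count was 2. The hop1 libraries measured 2.06, 2.65 and 2.76 CPM in pfs2-V180F and 1.5, 1.38 and 1.26 CPM in pfs2-E104A (log2 difference 0.85 ± 0.21, adjusted p = 0.0023). For sme2 they measured 2.11, 1.60 and 1.93 CPM in pfs2-V180F and 0.713, 1.01 and 1.26 CPM in pfs2-E104A (0.94 ± 0.30). The differences for mei4 (0.61 ± 0.15) and mcp5 (0.32 ± 0.12) were smaller, and all 4 had groups that did not overlap, as in 22.7% of all genes with pfs2-V180F above.

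The order of the groups differed between transcripts below pla1-Y86L. For ssm4, crs1 and spo5 the next group was msi2-G252E, apart from all groups below it. For mei4 it was pfs2-V180F, at 7.49 ± 1.18 CPM and apart from msi2-G252E at 5.73 ± 0.601 CPM. For rec8 and mug8 no mutant but pla1-Y86L stood above WT by more than the spread, and the lowest group was msi2-G252E for rec8 (1.43 ± 0.212 CPM) and pta1-T524M for mug8 (16.3 ± 1.42 CPM). For sme2, hop1, mcp5 and mug10 neighbouring groups below pla1-Y86L overlapped throughout.

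Over the 8 group means of log2(CPM + 0.5), pairs of transcripts had a median Pearson r of 0.87 (0.57 to 0.99, 45 pairs). Without pla1-Y86L the median was 0.49 (−0.80 to 0.92), and 9 of 45 pairs were below 0. These groups share libraries between the transcripts and have no independent replication, so the values are a description. By the same measure, the genes most like the mean of the 10 among 2916 genes whose group means spanned at least 0.5 were stb3, annotated as a transcription factor (r = 0.994), the non-coding RNA SPNCRNA.1221 (0.990), ipk1 (0.988), the small nucleolar RNA snR3 (0.984) and SPNCRNA.1057 (0.984). Small nucleolar RNAs were also the most alike to sme2 (snR30, 0.986) and mug8 (snR93, 0.985). Their log2 fold changes in pla1-Y86L were 2.65 for snR3, 2.91 for snR30 and 2.36 for snR93.

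Motif density was then set beside the change in pla1-Y86L. Over the 10 transcripts, all copies in the transcript and the log2 fold change had a Pearson correlation of −0.54 and a Spearman rank correlation of −0.52. With the copies in the densest 300 bases the values were −0.08 and 0.09. They are a description over 10 transcripts that share their libraries. Outside the 10, the share of genes called higher in pla1-Y86L was between 27.5% and 34.3% in each class of 0 to 5 copies, near the 32.2% of all genes, and the class medians lay between −0.02 and 0.03. In msi2-G252E that share ran from 24.5% with 0 copies to 38.3% with 4 and 37.5% with 5, beside 29.3% of all genes. The class medians there lay between −0.04 and 0.09. Of the 12 other genes with at least 6 copies, a limit chosen after the values were seen, 8 were higher and 2 lower in pla1-Y86L. Their median was 0.71, beside 32.2% of all genes called higher and 32.4% lower. In msi2-G252E 6 of them were higher and 3 lower (median 0.45), beside 29.3% and 29.5% of all genes. No test was made of these differences.

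**Figure D3:**
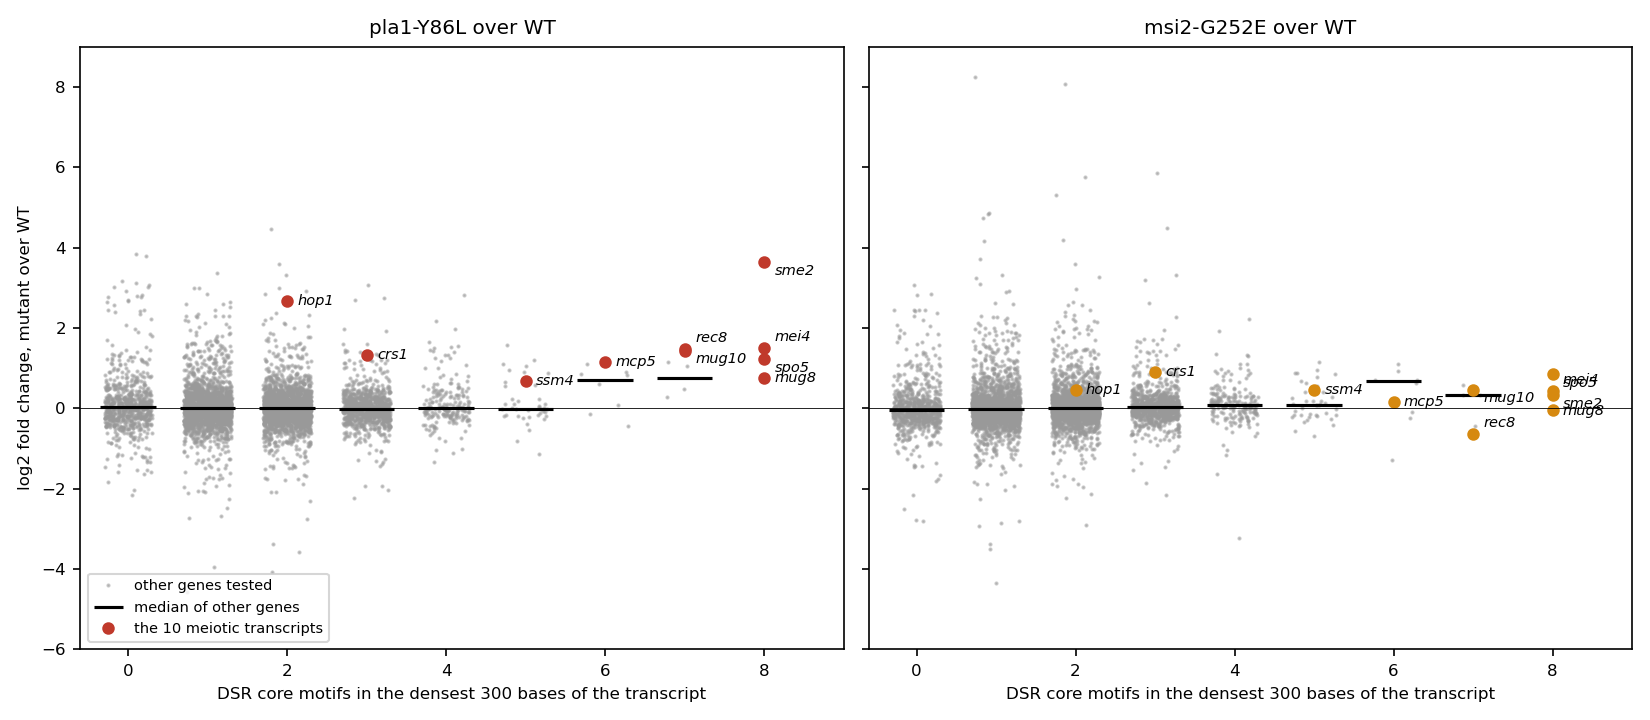
Log2 fold change over WT (y axis) by the number of DSR core motifs in the densest 300 bases of the transcript (x axis), in pla1-Y86L (left) and msi2-G252E (right); grey points are other genes, black lines their class medians, coloured points the 10 transcripts. Up to 5 copies, class medians of other genes lie between −0.02 and 0.03 in pla1-Y86L and between −0.04 and 0.09 in msi2-G252E. In pla1-Y86L hop1 lies high with 2 copies.

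Of these 12 genes, those higher in pla1-Y86L were mcp6 (1.14 ± 0.17), which organises the microtubules of the moving meiotic nucleus, rep1 (1.09 ± 0.15), an activator of the MBF transcription complex, mug9 (1.06 ± 0.19), rec11 (0.91 ± 0.11), the meiotic cohesin subunit that partners Rec8, rec27 (0.86 ± 0.36), mug4 (0.82), the chitin synthase gene chs1 (0.60) and mcp3 (0.47). The rec27 gene averaged only 0.977 CPM in pla1-Y86L and 0.543 CPM in WT, and its call was lost in 5 of 12 alternative fits. The genes fft3, a chromatin remodeller (−0.14; −0.06 and not called under total counts), and gsf2, a flocculin (−0.44), were lower, while arp1 and SPNCRNA.698 were not called.

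The factors of the elimination pathway themselves were called in both directions, with more lower than higher in every mutant except pta1-T524M. Of 29 listed genes, 10 were higher and 12 lower in pla1-Y86L (median −0.01), and 4 were higher and 12 lower in msi2-G252E (median −0.07). The shares over all genes were 32.2% higher and 32.4% lower in pla1-Y86L, and 29.3% and 29.5% in msi2-G252E. In pfs2-V180F 1 was higher and 16 lower (median −0.12, beside 24.1% and 24% of all genes). In cft1-L249Q the counts were 3 and 12 (22.3% and 21%), and in pfs2-E104A 4 and 9 (18.1% and 16.1%). For pta1-T524M they were 5 and 4 (18.7% and 19.8%), and for ysh1-L74F 2 and 7 (7.57% and 6.84%). In pla1-Y86L mmi1 measured 77.0 ± 4.36 CPM against 88.5 ± 1.95 CPM in WT (−0.20 ± 0.04), a difference not called under total counts (−0.13). Red1, the scaffold of the complex that hands RNAs to the exosome, was higher (0.38 ± 0.04), as were its partners red5 (0.36 ± 0.04) and mtl1 (0.29 ± 0.03), erh1 (0.24 ± 0.05), the exosome nuclease rrp6 (0.17 ± 0.04) and ctr1 (0.73 ± 0.12). Lower were not1 (−0.71 ± 0.03) and not3 (−0.45 ± 0.05) of the Ccr4-Not deadenylase complex, and pab2 (−0.11 ± 0.04), whose call ended when 1 of 4 libraries was left out in turn, WT replicate 1 or 3 or pla1-Y86L replicate 2 or 3 (−0.09 to −0.10), and under total counts (−0.03). In msi2-G252E rrp6 and pab2 were not called, while these were: mei2, red1 (0.24 ± 0.04), mmi1 (−0.13 ± 0.04), erh1 (−0.15 ± 0.05) and pla1 (−0.21 ± 0.04); under total counts mmi1 and erh1 changed sign (0.04 and 0.02) and pla1 was not called (−0.04). The mmi1 call also ended without WT replicate 1 or 3 or msi2-G252E replicate 2 or 3 (−0.11 to −0.10), and the erh1 call without WT replicate 3 or msi2-G252E replicate 1 or 3 (−0.12 to −0.11). The largest decreases beside mei2 were those of the cap-binding gene cbc1 (−0.50) and of dis3, a nuclease of the exosome (−0.47).

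Pla1 mRNA itself measured 36.4, 34.7 and 34.9 CPM in pla1-Y86L, against 153, 146 and 149 CPM in WT (−2.08 ± 0.04, adjusted p = 1.79e-21). The mutant strain thus had less of the polymerase's own mRNA in addition to the amino acid change, with kanMX at that locus, and these cannot be told apart.

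The largest change among the pathway genes was in mei2, the inducer of meiosis that counteracts Mmi1 together with sme2. It measured 4.13, 4.04 and 4.61 CPM in pla1-Y86L, against 68.1, 62.5 and 67.2 CPM in WT (−3.95 ± 0.18, adjusted p = 2.14e-14). In msi2-G252E it measured 18.0, 17.4 and 18.5 CPM (−1.88 ± 0.15). The sme2 RNA was thus higher and the mRNA of its protein partner lower in pla1-Y86L. Mei2 was also lower in pfs2-V180F (−0.95 ± 0.14), ysh1-L74F (−0.74 ± 0.13), cft1-L249Q (−0.51 ± 0.13) and pfs2-E104A (−0.48 ± 0.14), and was not called in pta1-T524M.

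**Figure D4:**
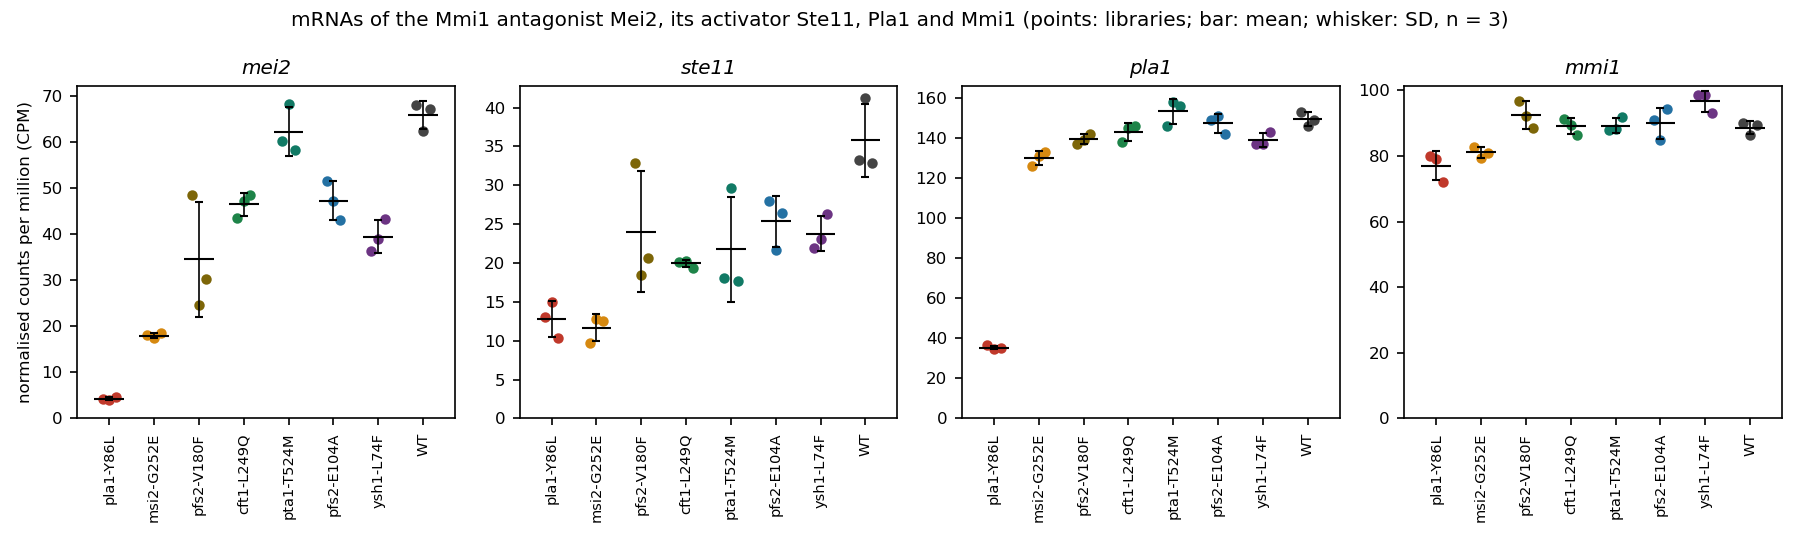
Levels of mei2, ste11, pla1 and mmi1 mRNA in the 24 libraries (y axis, CPM from 0; points, libraries; bar and whisker, mean and SD of 3). Mei2 lies at 4.04 to 4.61 CPM in pla1-Y86L and 17.4 to 18.5 CPM in msi2-G252E, against 62.5 to 68.1 CPM in WT.

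Upstream of mei2, ste11, the transcription factor that starts sexual differentiation, was lower in all 7 mutants. It measured 12.8 ± 2.32 CPM in pla1-Y86L and 11.7 ± 1.69 CPM in msi2-G252E, against 35.8 ± 4.69 CPM in WT (−1.49 ± 0.19 and −1.62 ± 0.20). In the other 5 mutants the log2 fold change ran from −0.85 for cft1-L249Q to −0.49 for pfs2-E104A. Of these calls, the one in pfs2-V180F ended without WT replicate 2 or its own replicate 2 or 3, the one in pfs2-E104A without WT replicate 1 or 2 or its own replicate 2 or 3 and also under total counts (−0.45) and DESeq2 (−0.50), and the one in ysh1-L74F without WT replicate 2 or its own replicate 1 or 2. The values without those libraries ran from −0.57 to −0.38. Of the 10 genes listed for entry into meiosis, 3 were higher and 3 lower in pla1-Y86L (32.2% and 32.4% of all genes). Beside mei2 and ste11, rst2, the activator of ste11, was lower (−0.39 ± 0.04), and rep1 (1.09 ± 0.15), the catalytic kinase subunit gene pka1 (0.71 ± 0.06) and mes1, a regulator of the meiotic divisions (0.53 ± 0.07), were higher. In msi2-G252E 2 were higher, rep1 (1.10 ± 0.15) and mes1 (0.24 ± 0.08), and 4 lower (29.3% and 29.5% of all genes).

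The genes in a list of meiotic chromosome and recombination genes outside the 10 were mostly higher in pla1-Y86L. The list also holds dil1, mug1 and mcp6, which belong to the movement of the meiotic nucleus. It is not separate from the motif-rich genes above, since mcp6, mug9, rec11 and rec27 are in both. Of 24 tested, 16 were higher and 5 lower in pla1-Y86L (32.2% and 32.4% of all genes). Their median was 0.84, against 0 for all genes. In msi2-G252E 13 were higher and 2 lower (29.3% and 29.5% of all genes), with a median of 0.43. For pfs2-V180F the counts were 8 higher and 2 lower (24.1% and 24% of all genes), and for cft1-L249Q 6 and 2 (22.3% and 21%). For pta1-T524M they were 3 and 3 (18.7% and 19.8%), and for pfs2-E104A 3 and 2 (18.1% and 16.1%). For ysh1-L74F they were 2 and 0 (7.57% and 6.84%). In pla1-Y86L the largest increases were those of meu13, a cofactor of strand exchange (1.45 ± 0.24), dil1, a meiotic dynein subunit (1.24 ± 0.15), mug45 (1.20 ± 0.12) and rec25 of the linear elements (1.19 ± 0.13). The meiotic recombinase dmc1 (−1.26 ± 0.18), mcp7 (−1.13 ± 0.10), rec7 (−0.89 ± 0.30, −0.67 and not called without WT replicate 2) and meu6 (−0.80 ± 0.08) were lower.

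Mcp7 differed in direction between mutants. Its log2 fold change was 1.16 ± 0.08 for pfs2-V180F, 1.00 ± 0.08 for cft1-L249Q, 0.96 ± 0.08 for pfs2-E104A, 0.62 ± 0.08 for msi2-G252E and 0.46 ± 0.08 for ysh1-L74F, and −0.45 ± 0.09 for pta1-T524M, all called. In msi2-G252E the largest increases in the list were dil1 (1.29 ± 0.15), mug45 (0.94 ± 0.12), rec24 (0.88 ± 0.13) and rec25 (0.88 ± 0.13). Lower were rec27 (−1.30 ± 0.49), at 0.218 ± 0.0626 CPM in msi2-G252E and 0.543 ± 0.176 CPM in WT, and rec7 (−0.83 ± 0.30), at 0.667 ± 0.193 CPM in msi2-G252E and 1.19 ± 0.284 CPM in WT. Both rest on few reads: the rec27 call ended without WT replicate 1 or 3 or msi2-G252E replicate 1 or 3, and the rec7 call without WT replicate 2 (−0.61) or msi2-G252E replicate 1 (−0.60) and under total counts (−0.66).

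Later genes changed in both directions. Of 17 tested middle meiosis and sporulation genes, 4 were higher and 5 lower in pla1-Y86L (median −0.10), and 6 were higher and 3 lower in msi2-G252E (median 0.07). The shares over all genes were 32.2% and 32.4% in pla1-Y86L, and 29.3% and 29.5% in msi2-G252E. Higher in pla1-Y86L were the kinase gene mug27 (1.39 ± 0.35), the meiotic septin spn5 (0.99 ± 0.12), meu14 of the forespore membrane (0.82 ± 0.13) and agn2, which frees spores from the ascus (0.50 ± 0.05). Lower were another meiotic septin, spn6 (−1.45 ± 0.15), spo6 (−0.43 ± 0.12), spo3 (−0.35 ± 0.04) and isp3 (−0.33 ± 0.10). Meu14 was the largest increase of that list in msi2-G252E (1.51 ± 0.13).

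Cohesin genes of dividing cells and the partners of Rec8 also changed in both directions. In pla1-Y86L 4 of 10 were higher and 5 lower (median −0.09), beside 32.2% and 32.4% of all genes. They were led by rec11 (0.91 ± 0.11), which is counted in both lists, and by the loader ssl3 (−0.40 ± 0.04). The mitotic counterpart of Rec11, psc3, changed by 0.16 ± 0.05 in pla1-Y86L and by −0.45 ± 0.05 in msi2-G252E.

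**Figure D5:**
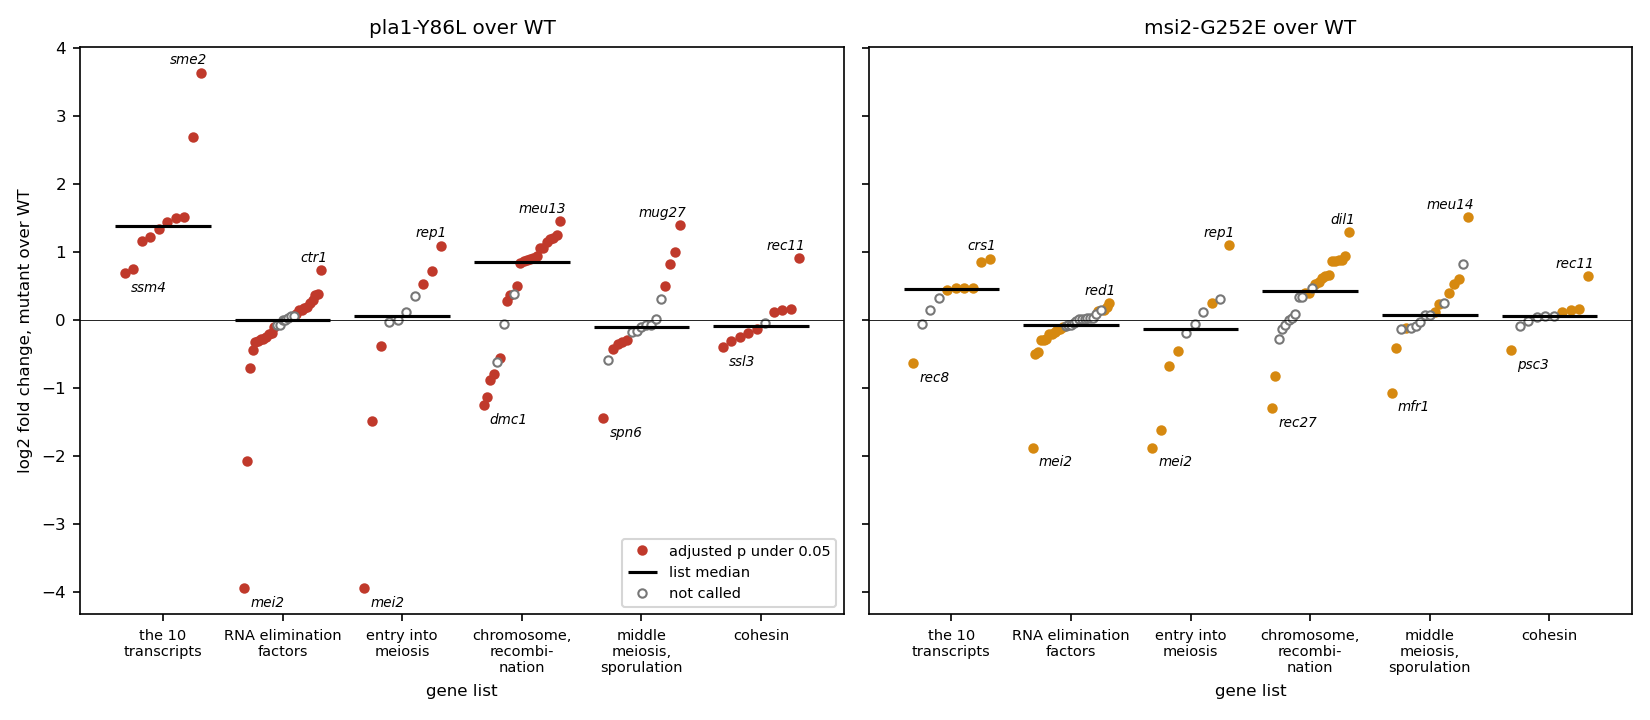
Log2 fold change over WT (y axis) for the 10 transcripts and for 5 lists of related genes (x axis) in pla1-Y86L (left) and msi2-G252E (right); filled points have an adjusted p under 0.05, open points do not, and black lines are list medians. In pla1-Y86L the median is 1.39 for the 10 transcripts and 0.84 for the list labelled chromosome and recombination. The medians of the other 4 lists there lie between −0.10 and 0.06.

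Neighbouring and overlapping genes were checked, because the libraries are directional but the strand setting of the counting is not given in the sources used here. Of the nearest non-overlapping downstream genes, those of mcp5 (SPBC216.03, 0.60 ± 0.05), mug8 (SPAC32A11.02c, 0.52 ± 0.07) and hop1 (ker1, 0.44 ± 0.06) were higher in pla1-Y86L. Those of ssm4 (but1, −0.68), sme2 (aga1, −0.48), spo5 (psm1, −0.19), crs1 (mug178, −0.17) and mei4 (act1, −0.14) were lower, and the rest were not called. Over all genes 32.2% were called higher and 32.4% lower. These neighbours were not refitted, and no link to the 10 transcripts was tested. In the RefSeq annotation mei4 overlaps cdk9 on the same strand, which was lower in pla1-Y86L (−0.52 ± 0.04). Sme2 overlaps mrpl8 on the same strand (0.28 ± 0.03 in pla1-Y86L) and an antisense RNA, SPNCRNA.1342. That RNA was not called in pla1-Y86L, msi2-G252E or ysh1-L74F. In cft1-L249Q it was lower (−0.51 ± 0.18), but the call ended without cft1-L249Q replicate 1 or 3. That call also ended under total counts (−0.38), with DESeq2 and with only the groups compared. The antisense RNA was also lower in pta1-T524M (−0.67 ± 0.18), pfs2-V180F (−0.85 ± 0.18) and pfs2-E104A (−1.04 ± 0.19). In pfs2-E104A sme2 was also lower (−0.94), so their reads cannot be told apart there without a known strand setting. The same holds for mcp5 in pla1-Y86L, where the antisense SPNCRNA.1397 that overlaps it was higher (1.14 ± 0.08), beside 1.16 for mcp5. Hop1 overlaps the antisense SPNCRNA.1602, not called in pla1-Y86L and lower in msi2-G252E (−0.68 ± 0.10), where hop1 was higher (0.46). The opposite-strand genes overlapping crs1 (ade9), spo5 (pcf1) and mug10 (sgf11) were not called in pla1-Y86L, and in msi2-G252E ade9 was higher (0.30 ± 0.06) and sgf11 lower (−0.30 ± 0.06; −0.13 and not called under total counts).

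The authors' deposited table of each mutant against WT calls the same numbers of these transcripts in pla1-Y86L (10 higher), msi2-G252E (6 higher, 1 lower), pfs2-V180F (1 higher), pta1-T524M (1 lower) and ysh1-L74F (1 lower). In cft1-L249Q and pfs2-E104A the authors' deposited table calls 2 lower where the fit above calls 1. The log2 fold changes of the authors' deposited table and of that fit differed by at most 0.02.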

How the data were processed

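Per the labels, polyA+ RNA was made into directional libraries and sequenced in pairs of reads. The submitters' processing notes list HISAT2 2.1.0, HTSeq 0.10.0, SAMtools, DESeq2 and the build ASM294v2. How HTSeq treated strand is not given in the sources used here. The authors deposited raw counts per gene for 24 libraries. They also deposited tables of log2 fold changes and p-values for each mutant, per the file headers. Replicates are biological per the labels; whether each is a separate culture is not stated, and p-values measure the spread between these samples. Counts were filtered (filterByExpr), scaled (TMM) and fitted with edgeR 4.0.16 (R 4.3.3, limma 3.58.1), with 1 mean per group over 24 libraries and 16 residual degrees of freedom; the fit was tested on simulated data. All ± values on the log2 scale are standard errors. DESeq2 1.42.0, other scalings (RLE, total counts), no filter, only the groups compared, a replicate block and leaving out single libraries were alternatives.

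Motifs were searched in RefSeq transcripts of ASM294v3, which matched 6848 of 6988 IDs; since builds differ, no genome coordinates are given. Members and gene lists were chosen with earlier results of these data known. Named list genes are up to 4 per direction by size, plus mmi1, erh1, red1, pab2, rrp6, mei2 and pla1; others named (the 12 motif-rich genes, mcp7 across mutants, some dynein genes) were chosen after their values were seen.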

Additional observations from a re-analysis of the deposited data

How the results depend on the processing

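The 22 called differences of single transcripts from WT were refitted under 12 alternatives each: 248 of 264 refits kept direction and call, 16 lost the call and 0 reversed. All 10 calls in pla1-Y86L held throughout. Of the refits of the 48 uncalled differences, 33 changed sign, 10 became called and 533 did neither. Numbers of called transcripts that moved by over 1.5 times, with their ranges, were these. Against WT, cft1-L249Q gave 2 instead of 1 with DESeq2 and with a replicate block, and ysh1-L74F 0 when only those groups were fitted. Against the other mutants, cft1-L249Q gave 3 instead of 5 under total counts. Leaving out single libraries gave 4 to 7 for msi2-G252E, 1 to 2 for pfs2-V180F, cft1-L249Q and pta1-T524M, 0 to 2 for pfs2-E104A and 0 to 1 for ysh1-L74F against WT. It gave 2 to 5 for pfs2-V180F against pfs2-E104A, and 1 to 3 for pfs2-V180F, 3 to 6 for cft1-L249Q and 5 to 8 for pta1-T524M against the other mutants. Smaller moves were 8 to 10 for msi2-G252E against pla1-Y86L, and 4 to 6 for pfs2-E104A, 5 to 8 for ysh1-L74F and 4 to 5 for msi2-G252E against the other mutants. The cause was not tested.

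Of 1390 refits of other named genes 1285 kept their call, 102 lost it and 3 reversed, all under total counts: mmi1 (0.04) and erh1 (0.02) in msi2-G252E and erh1 (0.01) in cft1-L249Q. That scaling raised the median of all genes by 0.17 in msi2-G252E and 0.13 in cft1-L249Q. Replicate numbers were not taken as pairs, because no mutant's 3 pairs with WT all correlated above 0.1: same-numbered deviations correlated at −0.15 to 0.23 (median 0.02, 84 pairs), and 15 of 24 libraries correlated best with their own number, a hint of shared structure from the data and not from the design. With the replicate block the calls against WT were 10 in pla1-Y86L, 7 in msi2-G252E, 2 in cft1-L249Q and 1 in each other mutant. Low counts limit precision, with single counts from 18 to 1040.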

Other observations

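Genes of the dynein and dynactin machinery that moves the meiotic nucleus were collected after their values were seen. In pla1-Y86L dil1 (1.24 ± 0.15), mcp5 (1.16 ± 0.11), mcp6 (1.14 ± 0.17), mug1, the dynactin subunit dynamitin (0.83 ± 0.18), and ssm4 (0.68 ± 0.13) were higher than in WT, and arp1, the dynactin filament subunit, was not called (0.29 ± 0.16). In msi2-G252E dil1 (1.29 ± 0.15), mug1 (0.86 ± 0.18) and ssm4 (0.46 ± 0.13) were higher, mcp5 and mcp6 were not called, and arp1 was lower (−0.44 ± 0.17), a call that ended under total counts (−0.27) and without any of 4 single libraries (−0.35 to −0.44). The densest 300 bases held 7 motifs in mcp6 and arp1, 6 in mcp5, 5 in ssm4 and 4 in dil1 and mug1. In the other 5 mutants the called differences of these 6 genes were dil1 in cft1-L249Q (0.60 ± 0.16), arp1 in pfs2-V180F (−0.79 ± 0.18) and ssm4 in ysh1-L74F (−0.47 ± 0.14).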
